A study of Homo sapiens with 6 samples.

Results

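The aldo-keto reductases were examined in RNA-seq of human hepatocellular carcinoma cells that overexpress transketolase (TKT), an enzyme of the pentose phosphate pathway. The family was taken as 10 genes by symbol, and 9 of them had a row among the 22077 gene rows of the count table. AKR1E2 had no row under its symbol and was not analysed here. All 9 passed the filter on low counts. The members were chosen by family name with their fold changes between the same 6 libraries known, so those fold changes are given as a description without a test.

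The 6 libraries came from 3 TKT overexpression cultures and 3 vector control cultures, the latter given the genotype wt in the labels. The cell line is labelled Hu7, the study's Results name Huh7 for this experiment and its Methods HCCLM3. TKT was carried by a plasmid with GFP and puromycin markers, and the Methods state that transfected cells went through a selection step without naming the agent. No other treatment or allele is given for either group. The sources name the samples as separate biosamples but not whether transfections were separate, so the spread between libraries may be partly technical. TKT, the check of the labels, had 348402, 294602 and 308875 counts on overexpression and 15626, 14256 and 17275 in the controls. Totals lay between 30148788 and 37096156 counts per library. Of the hepatocyte markers, ALB had 2294 FPKM and AFP 2589 FPKM on average in control cells, but APOB had at most 6 counts in any library. Summed over the 10 markers, FPKM were 5553 to 5675 in the controls and 5766 to 5896 on overexpression, and the part of this in the results was not tested. Of the immune markers, LYZ had 82.9 to 89.8 FPKM in the controls and 66.0 to 71.3 FPKM on overexpression, while CD3E and CD68 had at most 2 counts in any library. The 2 stromal markers with a row, COL1A1 and PDGFRB, summed to at most 0.409 FPKM, and the 2 endothelial ones, PECAM1 and VWF, to at most 2.62 FPKM.

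Aldo-keto reductases are NADPH-dependent enzymes that reduce aldehydes and ketones to alcohols. In liver the AKR1C enzymes reduce ketone groups of steroids and prostaglandins, AKR1D1 reduces the double bond of steroids and bile acid precursors, and the AKR1B and AKR1A enzymes act on sugars, retinal and reactive aldehydes. Several members are known targets of NRF2, a transcription factor of the response to electrophiles, and AKR1B10 is known as a marker of hepatocellular carcinoma. The pentose phosphate pathway, in which TKT works, is also a source of the NADPH that these enzymes use.

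The members lie in a few clusters of the genome. On chromosome 10 of GRCh38 (GENCODE 29) AKR1C1 spans 4963253 to 4983283, AKR1C2 4987400 to 5018031 on the opposite strand, AKR1C3 5035354 to 5107686 and AKR1C4 5195462 to 5218949. On chromosome 7 AKR1B1 spans 134442350 to 134459284, AKR1B10 134527592 to 134541408 and AKR1D1 138002324 to 138117986. AKR7A2 spans 19303965 to 19312146 and AKR1A1 45550543 to 45570049 of chromosome 1. For each AKR1C gene 250 bases before a RefSeq transcript start are shown, and these windows lie wholly or partly inside the GENCODE spans above. They were chosen because the neighbouring genes were higher together and because their sequences are so alike. They are RefSeq sequences of GRCh38.p14, read 5′ to 3′ on the strand of the gene, at chr10:4963165-4963414 (plus strand) for AKR1C1, chr10:5003858-5004107 (minus) for AKR1C2, chr10:5048531-5048780 (plus) for AKR1C3 and chr10:5196587-5196836 (plus) for AKR1C4. Capitals mark TGAACTGGAT, the longest run of bases that all 4 hold. Another RefSeq window of AKR1C3, at chr10:5094164-5094463 (plus strand), does not hold this run and was not aligned.
AKR1C1: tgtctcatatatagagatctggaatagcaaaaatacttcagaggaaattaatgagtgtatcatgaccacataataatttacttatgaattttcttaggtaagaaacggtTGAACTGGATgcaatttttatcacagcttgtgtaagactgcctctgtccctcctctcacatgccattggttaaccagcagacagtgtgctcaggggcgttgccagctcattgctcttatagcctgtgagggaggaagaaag
AKR1C2: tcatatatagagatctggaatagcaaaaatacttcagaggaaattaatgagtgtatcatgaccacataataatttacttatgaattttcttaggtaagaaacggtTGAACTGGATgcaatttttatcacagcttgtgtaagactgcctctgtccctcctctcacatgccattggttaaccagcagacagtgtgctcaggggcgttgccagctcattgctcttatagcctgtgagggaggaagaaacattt
AKR1C3: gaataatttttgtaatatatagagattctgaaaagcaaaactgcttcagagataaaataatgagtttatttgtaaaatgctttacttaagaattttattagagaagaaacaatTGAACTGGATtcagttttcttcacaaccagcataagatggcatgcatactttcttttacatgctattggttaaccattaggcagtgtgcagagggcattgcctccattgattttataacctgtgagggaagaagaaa
AKR1C4: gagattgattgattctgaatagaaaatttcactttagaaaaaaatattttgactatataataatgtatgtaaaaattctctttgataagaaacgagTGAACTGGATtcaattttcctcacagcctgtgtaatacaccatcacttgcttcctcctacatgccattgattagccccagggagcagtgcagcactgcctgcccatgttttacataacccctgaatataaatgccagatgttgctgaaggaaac
In a global alignment AKR1C1 and AKR1C2 were identical at 245 of 246 aligned bases (99.6%). AKR1C1 and AKR1C3 were identical at 76.8%, and AKR1C1 and AKR1C4 at 68.1% of aligned bases. The run in capitals occurs on the strand of the gene in 10 of 35116 promoter windows of RefSeq (0.0285%). These 10 include the 4 AKR1C windows shown, from which the run was taken, so its presence there was fixed in advance.

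Short motifs were searched on both strands of windows reaching from 250 bases before to 50 bases after the start, which RefSeq gave for 9 of the 10 members (13 windows). AKR1B10 was the member without a window and was not searched. The core of the antioxidant response element, TGACNNNGC, which NRF2 can bind, was in the windows of 1 member, AKR7A2, and in 13.3% of all promoter windows. The AP-1 motif TGANTCA, which can overlap the former, was in none of the members' windows and in 7.71% of all. The E-box CACGTG, which MYC can bind, was in the window of AKR1A1 and in 7.26% of all. The core of the xenobiotic response element, GCGTG, was in windows of AKR1B1, AKR1E2 and AKR7A2 and in 36.5% of all. The 250 bases before the start of AKR7A2 (chr1:19312147-19312396, minus strand) are shown because this was the only searched member with the antioxidant core, with its 3 matches in capitals.
AKR7A2: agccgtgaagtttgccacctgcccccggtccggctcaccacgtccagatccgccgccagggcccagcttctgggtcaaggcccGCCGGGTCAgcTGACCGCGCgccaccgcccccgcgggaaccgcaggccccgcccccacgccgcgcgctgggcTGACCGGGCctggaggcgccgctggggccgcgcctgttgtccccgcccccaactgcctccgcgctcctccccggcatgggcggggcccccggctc
Such a match is a description of letters, and elements farther from the start were not searched.

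In edgeR's quasi-likelihood test over all 14162 tested genes, 7 of the 9 members were higher and 1 lower on TKT overexpression with an adjusted p below 0.05. Of all tested genes 10.6% were past this threshold, 5.69% higher and 4.94% lower. At the study's threshold, which adds an absolute log2 fold change over 1, 2 members, AKR1B10 and AKR1C2, were past it, both higher, beside 0.727% of all tested genes (0.699% higher and 0.0282% lower). Because these values chose the members, nothing is read from the counts. The 7 higher members were AKR1B1, AKR1B10, AKR1D1 and the 4 AKR1C genes, with fitted folds between 1.54 and 2.53. AKR7A2 was lower, and AKR1A1, the most abundant member, was at 0.943 of its control level. The median log2 fold change of the 9 members was 0.88, against 0.00082 over all tested genes. In 8 of the 9 members, 7 higher and 1 lower, the CPM values of the groups did not overlap, as in 28.0% of all tested genes (14.1% higher and 13.9% lower). In bulk cultures, a change of RNA per cell and a change in the share of cells that express a gene cannot be told apart.

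**Figure D1:**
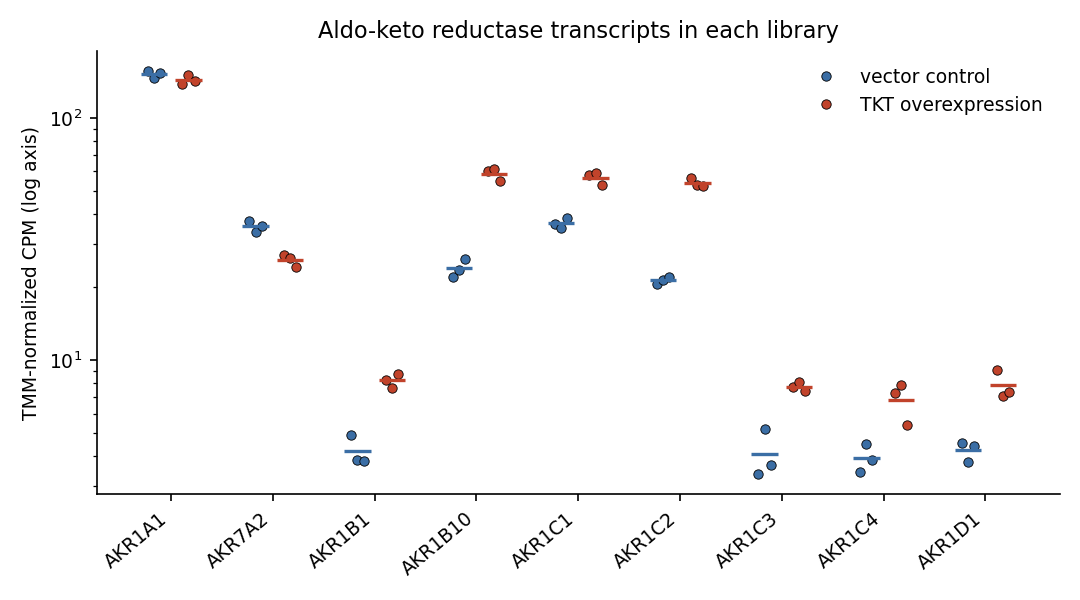
TMM-normalized CPM (log axis) of the 9 aldo-keto reductases in each library, with 3 vector control libraries (blue) and 3 TKT overexpression libraries (red) per gene and the group mean as a line. AKR1A1 overlaps between groups, AKR7A2 is lower on TKT overexpression, and the other 7 genes are higher in each TKT library than in each control library.

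Among the AKR1C genes, AKR1C2 had the largest fold. AKR1C2 reduces dihydrotestosterone, the potent androgen, to a weak metabolite. Its CPM (the usual per-library rescaling of counts, here with TMM factors) were 56.2, 52.9 and 52.3 on TKT overexpression and 20.6, 21.4 and 21.9 in the controls. Its FPKM, the authors' value per length, were 9.19, 8.56 and 8.69 against 3.35, 3.53 and 3.56. Each overexpressing library was above each control library, with a fold of 2.53 (95% interval 2.31 to 2.76, log2 fold change 1.34, standard error 0.06).

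AKR1C1 inactivates progesterone and lies beside AKR1C2. Its CPM were 57.9, 59.3 and 52.7 on overexpression and 36.4, 35.1 and 38.6 in the controls, and its FPKM were 6.57, 6.67 and 6.08 against 4.12, 4.02 and 4.35. The groups did not overlap on either scale. Its fold of 1.54 (95% interval 1.41 to 1.68) was the smallest of the higher members. Its promoter window is nearly that of AKR1C2, and a link between these windows and the folds was not tested.

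AKR1C3 forms testosterone from androstenedione and also reduces prostaglandins. It had 7.72, 8.10 and 7.42 CPM on overexpression and 3.37, 5.17 and 3.70 in the controls. Its FPKM were 1.96, 2.04 and 1.92 against 0.854, 1.33 and 0.934. Control replicate 2 stood above the other controls but below each overexpressing library. The fold was 1.90 (95% interval 1.50 to 2.41, log2 fold change 0.93), and without that control library the log2 fold change was 1.13, past the study's threshold.

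AKR1C4 is the hepatic AKR1C enzyme that works on bile acid precursors. Its CPM were 7.31, 7.88 and 5.38 on overexpression and 3.44, 4.51 and 3.87 in the controls, and its FPKM 3.80, 4.06 and 2.84 against 1.78, 2.37 and 2.00. TKT overexpression replicate 3 was the lowest of its group, yet above each control. The fold was 1.74 (95% interval 1.35 to 2.24).

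Summed over the 4 AKR1C genes, CPM were 129, 128 and 118 on overexpression and 63.8, 66.1 and 68.1 in the controls. Fitted as 1 row, the sum was 1.89 times its control level (0.92 on the log2 scale, standard error 0.05). The make-up of the sum differed between the groups. AKR1C2 made up 42.7%, 40.1% and 44.5% of the summed AKR1C FPKM on overexpression and 33.2%, 31.4% and 32.8% in the controls. AKR1C1 made up 30.5%, 31.3% and 31.1% against 40.8%, 35.8% and 40.1%. AKR1C2 thus had the larger share in each overexpressing library and AKR1C1 in each control library. The shares of AKR1C3 (9.51% ± 0.352 against 9.63% ± 1.89, SD, n = 3) and AKR1C4 (17.1% ± 2.29 against 19.0% ± 1.80, SD, n = 3) overlapped between groups. In counts without a length correction, the ratio of AKR1C2 to AKR1C1 was 0.970, 0.891 and 0.992 on overexpression and 0.565, 0.609 and 0.568 in the controls. It stayed below 1 in every library, so the order of this pair depends on length and only the shift between groups does not. The deposited FPKM imply a length of 8795 to 8796 bases for AKR1C1 and 6107 to 6108 for AKR1C2. GENCODE 29 gives them 8765 and 6461 exon bases. For AKR1C3 the implied length was 3924 to 3925 beside 4532 exon bases, and for AKR1D1 3424 beside 3093. Shares and levels per length depend on the lengths used.

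**Figure D2:**
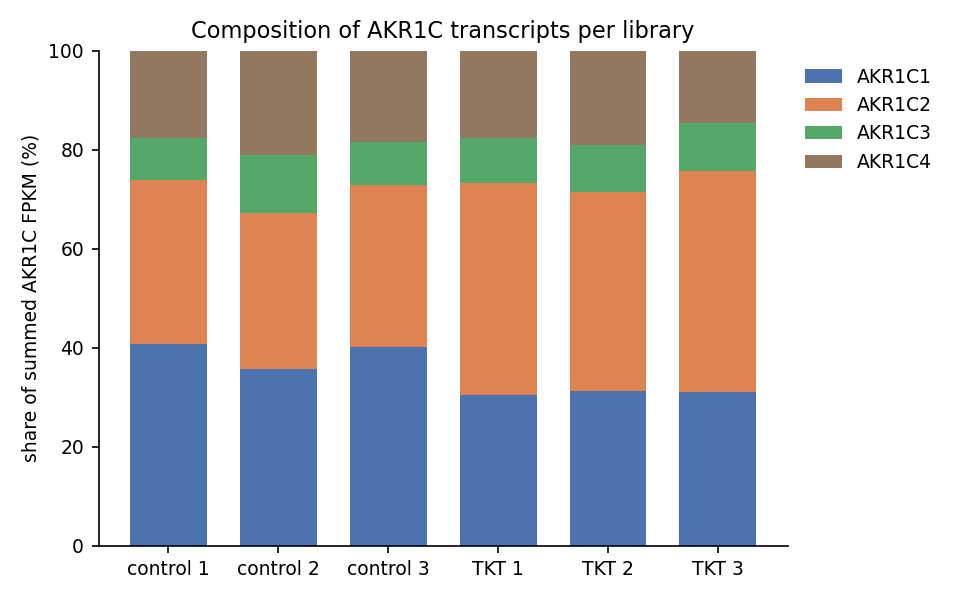
Share of each AKR1C gene in the summed AKR1C FPKM (percent, stacked bars) in the 3 vector control (control) and 3 TKT overexpression (TKT) libraries. AKR1C1 (blue) takes 35.8% to 40.8% in the controls and 30.5% to 31.3% on overexpression, and AKR1C2 (orange) 31.4% to 33.2% and 40.1% to 44.5%.

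AKR1C1 and AKR1C2 can exchange reads. Of the windows of 150 bases, the read length, in the GENCODE 29 transcripts of AKR1C1, 10.05% also occur in AKR1C2, and 13.3% of those of AKR1C2 occur in AKR1C1. AKR1C3 shares 0.444% of its windows with AKR1C2, and the windows of the other members occur in no other gene. How the authors' counting treated such reads is not given in the sources used here. With AKR1C1 and AKR1C2 added into 1 row, which leaves reads shared within the pair without effect unless they were discarded, the log2 fold change was 0.93 (standard error 0.05). The spans of other annotated genes, introns included, overlap those of AKR1C2, AKR1C3, AKR1C4, AKR1D1 and AKR7A2. Whether their exons overlap was not examined, and the strand setting of the counting is not stated. Of these genes, ARL4AP3 in the span of AKR1C4 had at most 6 counts in any library. RNU6-1099P in the span of AKR7A2 had at most 1.

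AKR1D1, the steroid reductase of bile acid synthesis, lies on chromosome 7 away from the AKR1C cluster. Its CPM were 9.07, 7.10 and 7.36 on overexpression and 4.55, 3.79 and 4.41 in the controls. Its FPKM were 2.65, 2.05 and 2.18 against 1.32, 1.11 and 1.28. Replicate 1 was the highest of the overexpressing libraries, and the groups did not overlap. The fold was 1.85 (95% interval 1.48 to 2.31).

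AKR1B10 reduces retinal and reactive aldehydes, and it had the second largest fold of the family. Its CPM were 60.5, 61.2 and 54.7 on overexpression and 22.0, 23.4 and 26.2 in the controls. Its FPKM were 34.0, 34.0 and 31.2 against 12.3, 13.3 and 14.6. The lowest overexpressing library lay well above the highest control, with a fold of 2.46 (95% interval 2.23 to 2.71, log2 fold change 1.30, standard error 0.07). Its interval overlaps that of AKR1C2.

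AKR1B1 is aldose reductase, which turns glucose into sorbitol. It had 8.28, 7.68 and 8.73 CPM on overexpression and 4.90, 3.85 and 3.81 CPM in the controls. In FPKM it had 2.26, 2.07 and 2.42 against 1.33, 1.06 and 1.03. Control replicate 1 was the highest control, and no control reached an overexpressing library. The fold was 1.96 (95% interval 1.58 to 2.45) and the log2 fold change 0.97. That value was 1.10 without control replicate 1 and 1.02 without TKT overexpression replicate 2, past the study's threshold in both. Per length it stayed scarce beside AKR1B10 in both groups.

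AKR1A1 reduces a wide range of aldehydes and was the most abundant member. Its CPM were 138, 151 and 142 on overexpression and 156, 146 and 154 in the controls, and its FPKM 43.9, 47.6 and 46.0 against 49.6, 47.1 and 48.7. TKT overexpression replicate 2 lay within the range of the controls, so the groups overlapped. The fold was 0.943 (95% interval 0.883 to 1.01).

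AKR7A2 reduces succinic semialdehyde and the dialdehyde of aflatoxin. Its CPM were 27.1, 26.4 and 24.3 on overexpression and 37.6, 33.8 and 35.6 in the controls. Its FPKM were 15.2, 14.7 and 13.8 against 20.9, 19.1 and 19.8. Each overexpressing library was below each control, with a fold of 0.727 (95% interval 0.656 to 0.806, log2 fold change -0.46, standard error 0.07).

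**Figure D3:**
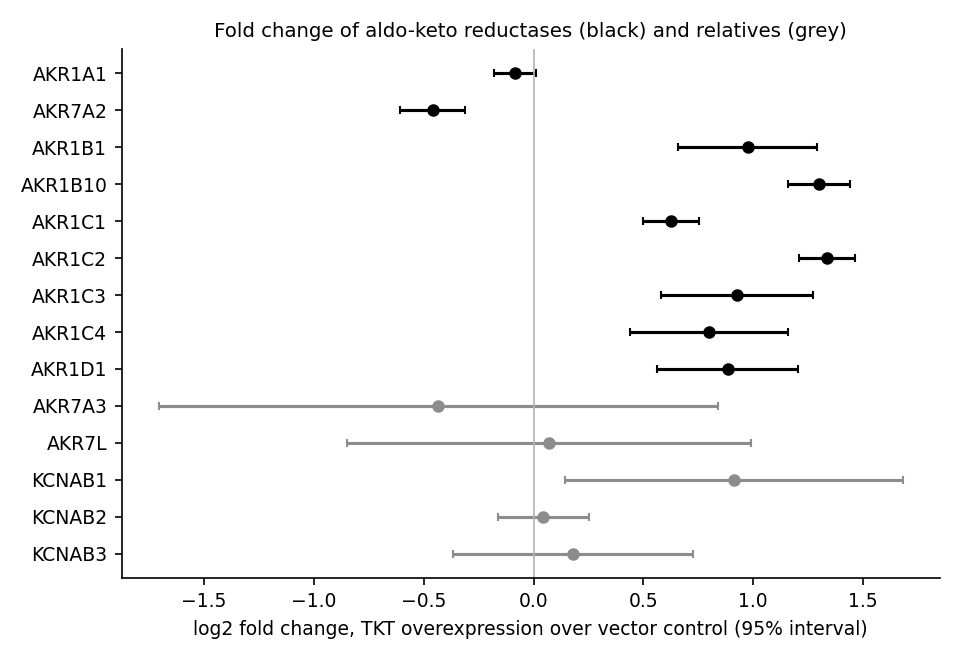
Log2 fold change of TKT overexpression over vector control with its 95% interval from edgeR, for the 9 members (black) and the 5 tested relatives of the aldo-keto reductase superfamily (grey). The intervals of 7 members lie above 0 and that of AKR7A2 below it, and the relatives range from -0.43 for AKR7A3 to 0.91 for KCNAB1 with wide intervals for the scarce ones.

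Ordered by FPKM, a level per length, control cells held AKR1A1 (48.4 ± 1.26, SD, n = 3), AKR7A2 (19.9 ± 0.929), AKR1B10 (13.4 ± 1.16), AKR1C1 (4.16 ± 0.173), AKR1C2 (3.48 ± 0.112), AKR1C4 (2.05 ± 0.297), AKR1D1 (1.24 ± 0.109), AKR1B1 (1.14 ± 0.164) and AKR1C3 (1.04 ± 0.253). The libraries of neighbours in this order did not overlap down to AKR1C4 and AKR1D1, while AKR1D1, AKR1B1 and AKR1C3 overlapped with their neighbours. On TKT overexpression AKR1B10 (33.1 ± 1.62 FPKM) stood above AKR7A2 (14.5 ± 0.699), and AKR1C2 (8.81 ± 0.329) above AKR1C1 (6.44 ± 0.317). The other ranks were the same, and AKR1D1 and AKR1B1 again overlapped. The summed FPKM of the 9 genes was 119, 122 and 115 on overexpression and 95.5, 92.9 and 96.3 in the controls. AKR1A1 made up 38.6% ± 1.68 of that sum on overexpression and 51.0% ± 0.707 in the controls (SD, n = 3 each). AKR1B10 made up 27.8% ± 0.678 against 14.1% ± 1.16, and AKR7A2 12.2% ± 0.405 against 21.0% ± 0.779. The ratio of AKR1B10 to AKR1A1 in FPKM was 0.774, 0.714 and 0.678 against 0.248, 0.282 and 0.300.

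The genes most like the members over the 6 libraries were found by the distance between log2 CPM centred on the mean of each gene. Among 11232 genes, those nearest to AKR1B10 were AKR1C2 (distance 0.166), PPP1R15A (0.200) and PLK2 (0.201). Nearest to the AKR1C sum were CCN1 (distance 0.0546), CYP1A1 (0.146) and GADD45A (0.162). With 2 groups of 3 libraries this measure reflects mostly the difference between groups.

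Other genes of the aldo-keto reductase superfamily were scarce. Of 9 listed, 7 had a row and 5 passed the filter. None of the 5 was past an adjusted p-value of 0.05 in edgeR or DESeq2, while 10.6% of all tested genes were in edgeR. Of the 5, 1, KCNAB1, had an unadjusted p under 0.05 in edgeR. KCNAB1, a beta subunit of potassium channels, had 0.637 CPM in the controls and 1.20 on overexpression, with 0.91 as its log2 difference (standard error 0.37, edgeR adjusted p = 0.129). KCNAB2, the most abundant of them, had 14.1 and 14.5 CPM and a log2 fold change of 0.05 (standard error 0.10). KCNAB3 had 0.18 (standard error 0.26). AKR1B15, beside AKR1B10 and close to it in sequence, had 11, 16 and 15 counts on overexpression and 5, 8 and 6 in the controls, and it did not pass the filter. KCNAB1, AKR1B15 and AKR7A3 were named after their values were seen.

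Enzymes of other families that act on carbonyls and aldehydes went both ways. With the same threshold in edgeR, 5 of 36 tested rose and 4 fell, beside 5.69% and 4.94% of all tested genes. Their median log2 fold change was -0.10. PTGR1, a reductase of prostaglandins and reactive alkenals, rose by 0.50 on the log2 scale (adjusted p = 1.41e-08), with 210 ± 8.35 CPM in the controls and 298 ± 10.8 on overexpression (SD, n = 3 each). DHRS3, a reductase of retinal, rose by 0.30 on the log2 scale (adjusted p = 0.00257). DHRS7 rose by 0.22 (adjusted p = 0.0100) and ALDH1A1, the retinal dehydrogenase, by 0.15 (adjusted p = 0.00623) from 2323 to 2578 CPM. The calls of DHRS7 and ALDH1A1 were lost in 1 and 2 of 14 alternatives, ALDH1A1 without TKT overexpression replicate 1 (adjusted p = 0.0546). DCXR, which reduces xylulose and dicarbonyls, fell by 0.44 (adjusted p = 2.18e-05) from 67.1 to 49.6 CPM. ALDH18A1 and ADH5, the most abundant enzymes not past the threshold, had log2 fold changes of -0.03 and -0.11 (edgeR adjusted p = 0.664 and 0.0629), and ADH5 was past it in DESeq2 (adjusted p = 0.0348). Without TKT overexpression replicate 1, 5 genes of the list were past the threshold in place of 9.

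Among enzymes of steroid and bile acid metabolism outside the family, 25 were tested and none was past an adjusted p-value of 0.05 in edgeR or DESeq2. Of all tested genes 10.6% were past it in edgeR. Of the 25, 8 had an unadjusted p under 0.05 in edgeR, a share not counted over all tested genes. Their median log2 fold change was -0.10 and their values ran from -0.35 to 0.52. HSD17B11 was at 0.08 on the log2 scale (edgeR adjusted p = 0.332) and HSD17B10 at -0.11 (adjusted p = 0.183), both dehydrogenases of steroid hydroxyl groups. Without TKT overexpression replicate 3, 2 genes of the list were past the threshold.

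Of 26 NRF2 targets outside the family, 9 were higher and 1 lower with an edgeR adjusted p below 0.05. Of all tested genes 5.69% were higher and 4.94% lower at this threshold. By sign alone 17 of the 26 were higher, and the median log2 fold change was 0.08. HMOX1, heme oxygenase, rose by 0.47 on the log2 scale (edgeR adjusted p = 1.16e-07) and TXNRD1, thioredoxin reductase, by 0.44 (adjusted p = 1.04e-08). GCLC, the catalytic subunit of glutathione synthesis, rose by 0.38 (adjusted p = 1.83e-05). UGDH and EPHX1 each rose by 0.33 (adjusted p = 1.57e-06 and 1.06e-04), the former making UDP-glucuronic acid and the latter opening epoxides. NQO1, a standard reporter of NRF2, was at -0.03 (adjusted p = 0.671) at 624 CPM in the controls. The ferritin chains FTL and FTH1 had -0.13 and 0.05 (adjusted p = 0.127 and 0.511). FTL was past the threshold in 3 of 14 alternatives, lower in each, with every gene of at least 1 count (edgeR adjusted p = 0.00524), without TKT overexpression replicate 2 (0.0246) and without control replicate 2 (0.0105).

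The neighbours of the members on the chromosome were compared because the AKR1C genes lie side by side. Of 35 genes of the table within 250 kb of a member, 26 were tested. With an edgeR adjusted p below 0.05, 1 rose and 1 fell (7.69%), beside 10.6% of all tested genes. The median log2 fold change was -0.03. AKR1B15, AKR7A3 and AKR7L are on this list and also among the other genes of the superfamily. CALD1, near AKR1B10, had 0.14 (edgeR adjusted p = 0.0299), a call that 7 of 14 alternatives lost. NASP, near AKR1A1, fell by 0.16 (adjusted p = 0.00410). PRDX1, near AKR1A1 and also among the NRF2 targets, had -0.07 (adjusted p = 0.275), and MRTO4, near AKR7A2, had -0.05 (adjusted p = 0.549). NET1 was the only tested neighbour of the AKR1C genes, with 0.12 (adjusted p = 0.115), and BPGM and SLC35B4, both near AKR1B1 and AKR1B10, had 0.27 and 0.00484 (adjusted p = 0.0722 and 0.976), these 3 being chosen after their values were seen.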

How the data were processed

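RNA was sequenced as paired reads of 150 bases from 3 TKT overexpression and 3 vector control cultures. Per the submitters' processing notes and the Methods, the authors trimmed reads with fastp 0.22.0, aligned them to hg38 with HISAT2 2.1.0 and counted them with featureCounts. The annotation and the strand and multi-mapping settings are not given in the sources used here. The deposited counts are whole numbers per gene symbol without normalization, and the authors also deposited FPKM.

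The tests on counts used edgeR 4.0.16 under R 4.3.3 (filterByExpr with a minimum count of 10, TMM, robust quasi-likelihood test, Benjamini-Hochberg adjustment over 14162 genes). Precision rests on the spread between 3 cultures (common biological coefficient of variation 0.113). Intervals are 95% intervals of the fit. Alternatives were DESeq2 1.42.0, limma 3.58.1 on log2(FPKM + 1) and log2(FPKM + 0.1), other scalings and filters, a replicate block and each library left out. Coordinates come from GENCODE 29 and promoters from RefSeq (GRCh38.p14), aligned with Biopython. Scripts were tested on simulated counts.

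The members and lists were chosen with earlier results of these data known. Named are all members, TKT, NQO1, in each list up to 5 genes past the threshold by smallest p and the 2 most abundant others, and the genes most like AKR1B10 and the AKR1C sum. Any other gene given with values, some cell type markers included, was named after its values were seen. A marker gene of the immune list is not reported here.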

Additional observations from a re-analysis of the deposited data

How the results depend on the processing

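The members were chosen with their values in these libraries known, so nothing is read from how stable they were. In each of 14 alternatives 8 members were past an adjusted p-value of 0.05. The 9 members gave 126 values over these alternatives, all with the direction and side of that threshold of the reported fit. Of 322 values of 23 other named genes, 306 did the same, 10 were no longer past it, 4 were newly past it and 2 changed sign without being past it. Without 1 library KCNAB2 lay between -0.000186 (without TKT overexpression replicate 2) and 0.0862, and KCNAB3 between -0.00629 (without control replicate 3) and 0.44, on the log2 scale. In the values without 1 library the number of members past the study's threshold was 2 to 3, and the median log2 fold change of the members 0.76 to 0.93. With limma on log2(FPKM + 1) that median was 0.55, since the pseudocount compresses genes near 1 FPKM, and AKR1B1, AKR1C3 and AKR1D1 had 0.60, 0.55 and 0.55.

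Without 1 library, other carbonyl and aldehyde enzymes past an adjusted p-value of 0.05 numbered 5 to 12, steroid and bile acid enzymes 0 to 2, NRF2 targets 8 to 12, neighbours 1 to 3, and all genes 791 to 1586 (74 to 128 at the study's threshold). Neighbours numbered 1 with either limma fit, and all genes 752 with log2(FPKM + 1) and 790 with log2(FPKM + 0.1). At the study's threshold 103 genes became 62 with DESeq2, 160 with every gene of at least 1 count, and 15 and 68 with the limma fits. The study itself, which names DESeq2 and this threshold, reported more differentially expressed genes than any of these counts. The causes were not tested.

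The replicate numbers showed no pairing of the cultures in expression, and the labels do not say whether cultures were handled in pairs. Deviations of same-numbered libraries correlated between -0.0252 and 0.0156, and not every library correlated best with its own number. With the replicate number as a block, 697 genes in place of 1505 were past the adjusted p-value (67 at the study's threshold), as were 4 other carbonyl and aldehyde enzymes, 1 neighbour and 8 NRF2 targets. Low depth limits AKR1B15, AKR1C8 and the scarcer relatives.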

Other observations

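Outside the lists of carbonyl enzymes, a pair of hepatocyte markers differed between the groups. FGB, the beta chain of fibrinogen, rose by 0.50 on the log2 scale (edgeR adjusted p = 8.85e-10) from 131 to 187 FPKM, and HNF4A, a transcription factor of hepatocyte identity, fell by 0.15 (adjusted p = 0.00720) from 28.4 to 25.6 FPKM. LYZ, lysozyme, fell by 0.35 (adjusted p = 1.71e-05) from 87.3 to 68.7 FPKM. ALB, AFP, APOA1 and TF had log2 fold changes of 0.03, 0.05, 0.01 and -0.02, none past an adjusted p-value of 0.05. APOB, which hepatocytes secrete in quantity, had between 0 and 6 counts per library.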
